A study of Homo sapiens with 7 samples.

Results

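Chromosomes 1, 9 and 16 carry the large blocks of satellite DNA next to their centromeres, and contact between the short and the long arm across those blocks was followed in 7 Hi-C libraries of DLD-1 cells. These 3 chromosomes were chosen by name, as the carriers of those blocks, out of the 18 chromosomes with enough contacts between and within 2 arms (1 to 12, 16 to 20 and X). The choice was made with earlier results of these data known. The other 15 served for comparison.

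DLD-1 is an established human colorectal adenocarcinoma line, and the study asked how genome organisation depends on DNMT1 and DNMT3B, which both methylate DNA. Hi-C ligates DNA ends that were near each other in the nucleus, and read pairs across the ligation count contacts between genomic positions. The DNMT3B knockout group was the DNMT1-AID line with DNMT3b -/-, untreated or with auxin for 4 d or 10 d. The DNMT1-AID group was the degron line with its DNMT3B, untreated, with auxin for 4 d or 10 d, or with auxin for 4 d and then a washout of 4 d. All 7 libraries thus carried the auxin-inducible degron on DNMT1, which targets the protein for breakdown once the plant hormone is given, and auxin and DNMT1 loss cannot be told apart as sources of a difference. The library titled as untreated knockout has a genotype label that names only DNMT1-AID and was grouped by its title.

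Each group held 1 library, so no difference was tested against replicates, and directions are described with "lower" and "higher". The libraries held 101594306 to 133252390 contacts in the knockout and 27345260 to 222645438 in DNMT1-AID cells, the washout library being the shallowest. These totals hold contacts between chromosomes and contacts within a chromosome at separations of 100 kb or more, so shorter contacts are left out. Intervals of a ratio are 95% exact Poisson intervals of the inter-arm count, and those of a log2 change combine the counting errors of both libraries (normal approximation). They cover counting error only. Contacts between chromosomes made up 25.2%, 24.4% and 29.2% of these totals in the knockout (untreated, 4 d, 10 d) and 21.4%, 20.5% and 26.2% in DNMT1-AID cells at the same times, and 23.1% after washout. The 6 arms of chromosomes 1, 9 and 16 had, in the other 6 libraries, 0.944 to 1.06 times their coverage in untreated DNMT1-AID cells, whereas both arms of chromosome 8 had 1.45 to 1.52 times that coverage in the knockout libraries.

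Next to the centromere, the long arms of chromosomes 1, 9 and 16 begin with large arrays of classical human satellites, simple tandem repeats that are densely methylated in somatic cells. DNMT3B is the methyltransferase known for methylating them. Its loss of function in immunodeficiency, centromeric instability and facial anomalies (ICF) syndrome leaves these satellites undermethylated, and the same chromosomes then show decondensed heterochromatin and joined arms in stimulated lymphocytes. DNMT1 copies methylation to the new strand after replication.

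The blocks themselves were blind spots of the maps. Runs of 50 kb bins without a deposited interaction cluster spanned chr1:119950001-145700000 (25.75 Mb), chr9:38750001-68400000 (29.65 Mb) and chr16:35600001-46350000 (10.75 Mb) in hg38. Genes that cross the edge of a run were left out of what follows. On chromosome 1 the nearest RefSeq protein-coding genes wholly outside the run on either side were ADAM30 (chr1:119893533-119896515), of the ADAM metalloprotease family, and CD160 (chr1:145719499-145739288), a receptor of natural killer and T cells. On chromosome 9 they were FAM240B (chr9:38694266-38720133) and the transmembrane protein gene TMEM252 (chr9:68536580-68540883). On chromosome 16 they were LOC124903767 (chr16:34388895-34389821) and SHCBP1 (chr16:46578591-46621379), a partner of the adaptor SHC1. The runs on chromosomes 1 and 9 also held 22 and 23 annotated coding genes in full, and the run on chromosome 16 held 0.

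Because of these runs, an inter-arm pair could first be measured at a reference separation of 27.25 to 27.3 Mb on chromosome 1, 30.2 to 30.25 Mb on chromosome 9 and 11.25 to 14.5 Mb on chromosome 16, depending on the library. On the other 15 chromosomes it was first measured at 2.6 to 8.7 Mb, the largest on chromosome 7. These separations are those of the reference, and the length of the satellite arrays in DLD-1 cells was not measured. A ratio between inter-arm and intra-arm contact at 1 reference separation therefore holds any difference between reference and true length.

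In the untreated DNMT1-AID library, whose bins the authors clustered by their contacts, the flanks within 5 Mb of each run differed between the chromosomes. The flanks of chromosomes 1 and 9 lay mostly in cluster A2, which took 58 of 99 and 24 of 37 clustered bins on the short-arm and long-arm sides of chromosome 1. It took 72 of 98 and 48 of 93 on those of chromosome 9, against 26.3% of all 46042 clustered bins. Chromosome 16 differed on its short-arm side, where cluster B4 took 10 of 34 bins, while it took 0.612% of all bins (282). Its long-arm side lay most often in cluster V+VI, with 41 of 91 bins, and 25 in A2. These counts describe 1 clustering of 1 library and neighbouring bins are not independent.

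Contact across the satellite blocks was high relative to intra-arm contact at the same reference separation on chromosomes 1 and 16. It was not high on chromosome 1 relative to contact with other chromosomes, a scale not matched for separation that is given further below. The inter-arm ratio is the mean balanced contact per valid bin pair between the arms over that within the arms at the same separation, taken from 20 to 50 Mb, so that 1 means that the arms met each other as often as loci equally far apart on 1 arm. In untreated DNMT1-AID cells the pairs in this range began at 27.3 Mb on chromosome 1 and 30.25 Mb on chromosome 9. On chromosome 16 they ended at 42.75 Mb. The median ratio of the other chromosomes there was 0.701 at 20 to 25 Mb and 0.930 at 45 to 50 Mb. Levels and ranks thus compare chromosomes over unlike separations. On chromosome 16 the ratio was 1.49 in untreated, 1.28 in 4 d and 0.894 in 10 d knockout cells. It was 1.66, 1.71 and 1.29 in DNMT1-AID cells at the same times and 1.53 after washout. Chromosome 16 thus had the highest ratio of the 18 chromosomes in 6 libraries, and it held rank 3 in the knockout at 10 d. Its level joined unlike bands of separation. In untreated DNMT1-AID cells it was 1.13 at 20 to 25 Mb, 1.28 at 25 to 30 Mb and 1.29 at 30 to 35 Mb. At 35 to 40 Mb it was 3.05 and at 40 to 45 Mb 2.98, from only 10085 and 1584 intra-arm bin pairs.

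On chromosome 1 the ratio was 1.32, 1.07 and 0.831 in untreated, 4 d and 10 d knockout cells, and 1.47, 1.43, 1.11 and 1.41 in untreated, 4 d, 10 d and washout DNMT1-AID cells. It held rank 2 in 5 libraries, rank 3 in the knockout at 4 d and rank 4 in the knockout at 10 d. On chromosome 9 it was 1.08, 0.924 and 0.747 in the knockout series, and 1.10, 1.32, 0.992 and 1.13 in the DNMT1-AID series, with ranks between 3 and 6. Chromosome 9 therefore lay among the highest of the other chromosomes, except at 4 d in DNMT1-AID cells, where it lay above them, while chromosomes 1 and 16 lay above all 15 of them in every library but the knockout at 4 d (chromosome 1) and at 10 d (both).

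The median of the other 15 chromosomes was 0.760, 0.707 and 0.698 in the knockout and 0.758, 0.792, 0.717 and 0.752 in DNMT1-AID cells. Their highest value belonged to chromosome 17 or 12 and reached 1.14, 1.11 and 0.926 in the knockout series and 1.19, 1.21, 1.06 and 1.17 in the DNMT1-AID series. Inter-arm counts behind the 3 satellite-rich chromosomes ran from 5899 (chromosome 9, washout) to 89907 (chromosome 16, 4 d of auxin in DNMT1-AID cells). For the untreated libraries the interval of the ratio on chromosome 9 ran from 1.06 to 1.09 in the knockout and from 1.08 to 1.11 in DNMT1-AID cells.

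**Figure D1:**
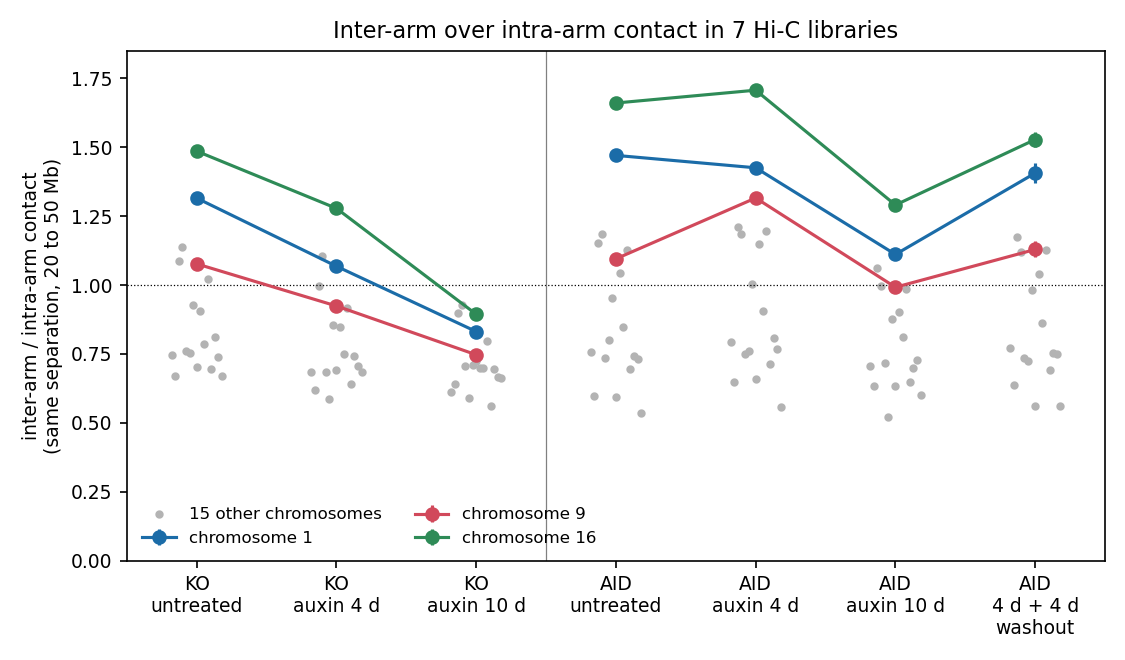
Inter-arm over intra-arm balanced contact at matched separations of 20 to 50 Mb (vertical axis, no unit) in each of the 7 libraries, knockout (KO) on the left and DNMT1-AID (AID) on the right. Coloured points are chromosomes 1, 9 and 16 with 95% counting intervals, which are mostly smaller than the points, grey points are the other 15 chromosomes, and the dotted line marks equal contact. Chromosome 16 stands between 0.894 and 1.71, and in the knockout at 10 d all 3 coloured points lie below 1.

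After 10 d of auxin in the knockout, the ratio was lower on chromosomes 1, 9 and 16 than without auxin, and by more than on any of the other 15 chromosomes. Chromosome 16 had 0.894 against 1.49 (39.8% lower, log2 ratio -0.73, interval -0.78 to -0.69). Chromosome 1 had 0.831 against 1.32 (36.8% lower, log2 ratio -0.66, interval -0.69 to -0.63). Chromosome 9 had 0.747 against 1.08 (30.6% lower, log2 ratio -0.53, interval -0.56 to -0.49). These were the 3 lowest of the 18 changes.

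Among the other chromosomes the lowest value was -0.39 on chromosome 2, the median was -0.28, and the highest was 0.043 on chromosome 20. A log2 difference of 0.1 or more was taken as a rule of size. By this rule 3 of 3 satellite-rich chromosomes and 12 of 15 others were lower, or 83.3% of all 18, so being lower was common to most chromosomes, and the 3 differed from the others in the size of the change. That the 3 came lowest held with raw counts, at 10 to 40 Mb, over all separations of 10 Mb or more, with separations not matched, without the first 5 Mb of inter-arm separations, with the long arm alone as reference, with at least 50 bin pairs and at 30 to 50 Mb on every chromosome. The last of these was added after seeing the data. Over all separations of 10 Mb or more the margin was small, as the highest of the 3 was -0.519 and chromosome 3 was -0.510.

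At 4 d in the knockout the ratio was already lower than without auxin on each of the 3 chromosomes. The log2 ratio was -0.30 on chromosome 1, -0.22 on chromosome 9 and -0.22 on chromosome 16, and the median of the others was -0.12. By the rule of size 66.7% of all 18 chromosomes were lower, the 3 among them. Only chromosome 19 lay below all 3, at -0.36, and X was highest at 0.029. For chromosome 9 this depended on the separations used, as its value was -0.10 at 10 to 40 Mb, where 9 of 15 others lay below it, and -0.33 over all separations of 10 Mb or more. Between 4 d and 10 d the further change was -0.36 on chromosome 1, -0.31 on chromosome 9 and -0.52 on chromosome 16, against a median of -0.10 on the others. All 3 were lower by the rule of size, as were 55.6% of all 18. These comparisons share the untreated or the 4 d knockout library.

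**Figure D2:**
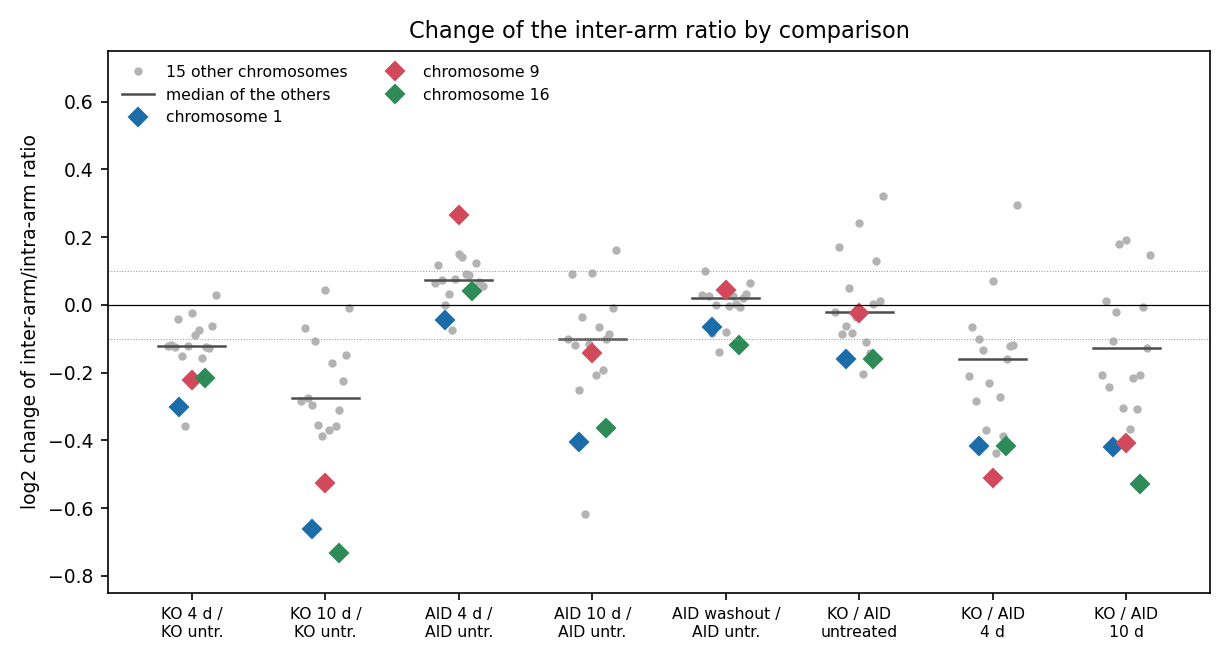
Log2 change of the inter-arm ratio (vertical axis) in 8 comparisons, each named as tested library over its reference on the horizontal axis (KO knockout, AID DNMT1-AID, untr. untreated). Diamonds are chromosomes 1, 9 and 16, grey points the other 15 chromosomes, the short bar their median and the dotted lines the rule of size at 0.1. In the knockout at 10 d over untreated, the diamonds at -0.73, -0.66 and -0.53 lie below every grey point.

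Both parts of the ratio moved on these chromosomes in the knockout, in opposite directions. At 10 d inter-arm contact per bin pair on chromosome 16 was 67.5 in units of 1e-06 of the authors' balanced signal, against 82.3 without auxin, and the intra-arm contact at the same separations was 75.5 against 55.4. On chromosome 1 inter-arm contact was 45.5 against 56.4 and intra-arm contact 54.7 against 42.9. On chromosome 9 they were 51.7 against 60.9 and 69.2 against 56.5. On the log2 scale inter-arm contact differed by -0.31, -0.24 and -0.29 on chromosomes 1, 9 and 16, whereas on the other 15 chromosomes it differed by -0.22 to 0.14 with a median of -0.022. Intra-arm contact differed by 0.35, 0.29 and 0.45 on the 3, and by a median of 0.21 on the others (range -0.064 to 0.33). Inter-arm contact was thus lower on each of the 3 by more than on any of the 15. On chromosome 9 the margin was small, at -0.236 against -0.224 on the lowest of the 15.

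At 4 d in the knockout the inter-arm part already differed by -0.19, -0.17 and -0.11 on chromosomes 1, 9 and 16, with a median of -0.0087 on the others. The intra-arm part differed by 0.11, 0.055 and 0.11, with a median of 0.10 on the others. At that time the intra-arm part of the 3 chromosomes did not stand apart from the rest.

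**Figure D3:**
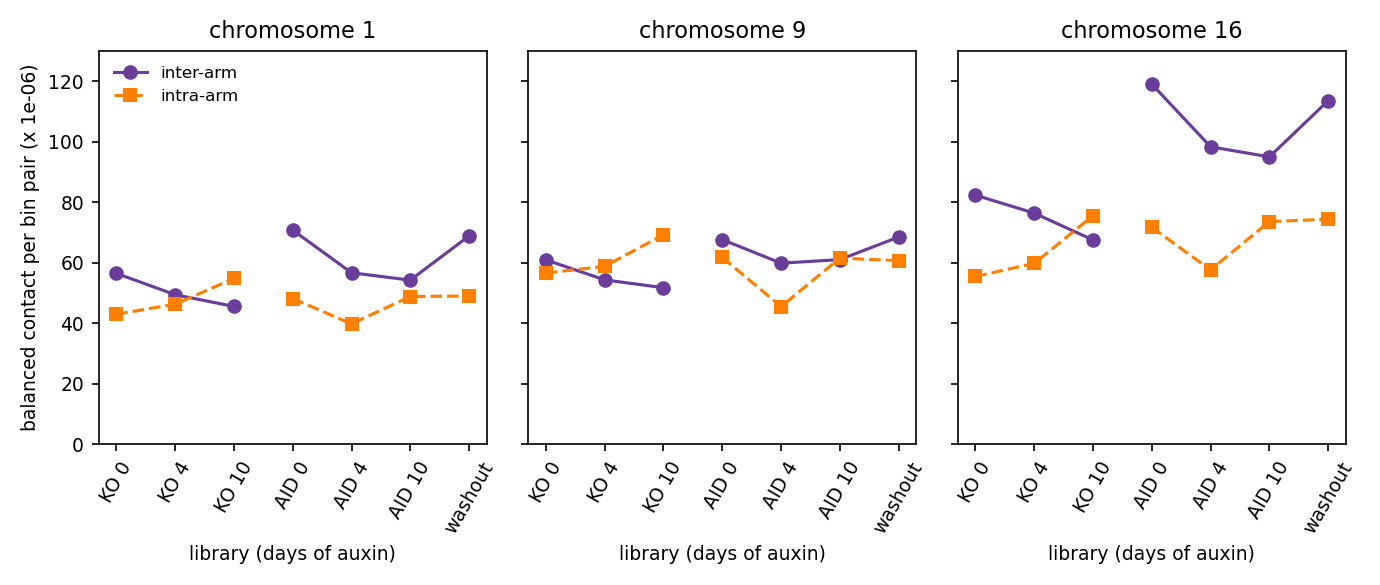
Balanced contact per valid bin pair (vertical axis, in units of 1e-06 of the authors' balanced signal) between the arms (circles) and within the arms at the same separations (squares) for chromosomes 1, 9 and 16. The horizontal axis gives the library, knockout (KO) then DNMT1-AID (AID), by days of auxin, with the washout library last. On chromosome 16 of the knockout at 10 d the inter-arm circle (67.5) lies under the intra-arm square (75.5), while it lies above it in the other 6 libraries.

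In DNMT1-AID cells, which keep DNMT3B, 10 d of auxin also went with a lower ratio on chromosomes 1 and 16. Chromosome 1 had 1.11 against 1.47 without auxin (24.4% lower, log2 ratio -0.40), and chromosome 16 had 1.29 against 1.66 (22.3% lower, log2 ratio -0.36). Chromosome 9 had 0.992 against 1.10, a log2 ratio of -0.14, with a median of -0.10 on the others. Over all separations of 10 Mb or more it was -0.23, with a median of -0.081. All 3 were lower by the rule of size, as were 61.1% of all 18. Chromosome 19 was lowest at -0.62, and chromosomes 20 and X were highest at 0.094 and 0.16. The inter-arm part differed by -0.38, -0.15 and -0.33 on chromosomes 1, 9 and 16 and the intra-arm part by 0.020, -0.0060 and 0.038, so that here the lower ratio lay in the inter-arm part. On the other 15 the inter-arm part was lower too, with a median of -0.13 (range -0.52 to -0.017), near the value of chromosome 9. Their intra-arm part had a median of -0.046.

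After 4 d of auxin in DNMT1-AID cells the ratios of chromosomes 1 and 16 differed little from those of untreated cells (log2 ratios -0.045 and 0.040). On chromosome 9 the ratio was 1.32 against 1.10, a log2 ratio of 0.26 and the highest of the 18. By the rule of size 27.8% of all chromosomes were higher and 0% lower, and chromosome 9 was the only one of the 3 among them. Both parts were lower at this time: the inter-arm part by -0.32, -0.18 and -0.28 and the intra-arm part by -0.28, -0.44 and -0.32 on chromosomes 1, 9 and 16. Both were also lower on all of the other 15. There the inter-arm part had a median of -0.17 (range -0.48 to -0.11) and the intra-arm part -0.25 (range -0.41 to -0.21). From 4 d to 10 d the log2 change was -0.36, -0.41 and -0.40 on chromosomes 1, 9 and 16, with a median of -0.16 on the others, and 72.2% of all 18 were lower by the rule of size, the 3 among them.

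After washout the ratios lay near those of untreated cells. Chromosome 1 had 1.41 against 1.47 (log2 ratio -0.064), chromosome 9 had 1.13 against 1.10 (0.044) and chromosome 16 had 1.53 against 1.66 (-0.12). Chromosome 16 was the only one of the 3 that was lower by the rule of size, which took 11.1% of all 18, and its counting interval ran from -0.18 to -0.058. Against the 4 d library, from which the washout began, the log2 ratio was -0.020 on chromosome 1, -0.22 on chromosome 9 and -0.16 on chromosome 16, with a median of -0.046 on the others. The last 2 chromosomes were among the 27.8% of all 18 that were lower by the rule of size. A library of the same total time without washout was not analysed here.

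Set against DNMT1-AID cells at the same time, the knockout had lower ratios on chromosomes 1 and 16 at each time. Untreated, the log2 ratio was -0.16 on chromosomes 1 and 16 alike and -0.025 on chromosome 9, with a median of -0.022 on the others, chromosome 3 lowest at -0.21 and chromosomes 20 and X highest at 0.24 and 0.32. By the rule of size 27.8% of all 18 chromosomes were lower, chromosomes 1 and 16 among them. At 4 d the log2 ratio was -0.42, -0.51 and -0.42 on chromosomes 1, 9 and 16 (median of the others -0.16, 83.3% of all 18 lower by the rule of size). At 10 d it was -0.42, -0.41 and -0.53 (median of the others -0.13, 66.7% lower), and these were the 3 lowest of the 18. All 3 were lower by the rule of size at 4 d and at 10 d. The rank at 10 d was lost in 4 of 8 alternatives: 7 of the other chromosomes lay below the highest of the 3 at 10 to 40 Mb, 3 with separations not matched, and 1 each over all separations of 10 Mb or more and at 30 to 50 Mb.

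Taking the 3 times as pairs, the mean difference of the knockout from DNMT1-AID cells was -0.33 ± 0.15 on chromosome 1, -0.31 ± 0.26 on chromosome 9 and -0.37 ± 0.19 on chromosome 16 (log2, SD over 3 times). Each was lower at 3 of 3 times, and an exact two-sided permutation test of the signs gave p = 0.25, the smallest that 3 pairs allow. The 3 times are different auxin states and not replicates, and the test assumes the same difference at each. For chromosome 9 the untreated difference was only -0.025, which is under the rule of size. On chromosome 9 the genotype difference changed with the separations used. At 10 to 40 Mb it was 0.34 untreated, 0.034 at 4 d and -0.055 at 10 d, and over all separations of 10 Mb or more it was -0.39, -0.91 and -0.68 at the same times.

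The auxin effects of the 2 genotypes were also set against each other. The log2 change after 10 d was lower in the knockout than in DNMT1-AID cells by -0.38 on chromosome 9 (-0.53 against -0.14), -0.37 on chromosome 16 (-0.73 against -0.36) and -0.26 on chromosome 1 (-0.66 against -0.40). Chromosomes 9 and 16 were the lowest of the 18, chromosome 2 came next at -0.27, the median of the others was -0.16, and chromosome 19 was highest at 0.26. At 4 d the difference was -0.49 on chromosome 9 and -0.26 on chromosomes 1 and 16, with a median of -0.19 on the others. The value for chromosome 9 at 4 d joins a lower ratio in the knockout (-0.22) and a higher one in DNMT1-AID cells (0.26). With 1 library for each of the 4 groups, none of these differences was tested.

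Divided into bands of separation, chromosome 1 showed the same direction throughout. In the knockout at 10 d against untreated, its ratio was lower in 10 of 10 bands from 25 to 120 Mb. The log2 ratio lay between -0.81 at 55 to 60 Mb (0.769 against 1.35) and -0.42 at 25 to 30 Mb (0.996 against 1.33), where the counts nearest the satellite block were 590 and 510. In DNMT1-AID cells at 10 d it was also lower in 10 of 10 bands, by -0.55 to -0.19. Farther out, at 60 to 80 Mb, chromosome 1 had 0.765 at 10 d against 1.27 untreated in the knockout, and at 80 to 100 Mb it had 1.08 against 1.58. In DNMT1-AID cells these bands had 1.11 against 1.49 and 1.40 against 1.70.

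Chromosome 16 had high ratios at both ends of its range of separations. Nearest the block, at 10 to 15 Mb, the ratio was 2.44 at 10 d against 2.94 untreated in the knockout (log2 ratio -0.27), from 981 and 862 bin pairs. At 35 to 40 Mb it was 1.34 against 2.31 in the knockout (log2 ratio -0.78), and 1.89 against 3.05 in DNMT1-AID cells (log2 ratio -0.69). At 20 to 25 Mb it was 0.789 against 1.23 in the knockout and 1.02 against 1.13 in DNMT1-AID cells. In the knockout the ratio at 10 d was lower in 7 of 7 bands between 10 and 45 Mb. In DNMT1-AID cells it was lower in 6 of 7, the exception being 10 to 15 Mb, for which the untreated library had only 98 valid bin pairs. At 40 to 45 Mb only 1584 to 2043 intra-arm bin pairs stood behind the 4 untreated and 10 d libraries, so the intra-arm level is least certain there.

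On chromosome 9 the course along separation differed between the genotypes before auxin. At 30 to 35 Mb, the pairs nearest the block, the ratio was 2.38 in untreated knockout cells and 1.75 in untreated DNMT1-AID cells. At 45 to 50 Mb the values were 0.976 and 1.19, so that the small difference of -0.025 up to 50 Mb joins bands of opposite sign (0.45 and -0.28). Beyond that range, at 55 to 60 Mb, the ratio was 1.24 and 2.39 (log2 ratio -0.95). Within the knockout, 10 d of auxin went with a lower ratio in 7 of 7 bands (log2 ratios -0.70 to -0.35), so that the auxin effect did not share this turn of sign. Any difference between the lines in the structure of chromosome 9 was not tested. The coverage of its arms, relative to untreated DNMT1-AID cells, did differ by genotype. The short arm had 1.04, 1.06 and 1.02 and the long arm 0.944, 0.950 and 0.961 in untreated, 4 d and 10 d knockout cells, while both arms had 0.993 to 1.003 in the other DNMT1-AID libraries.

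**Figure D4:**
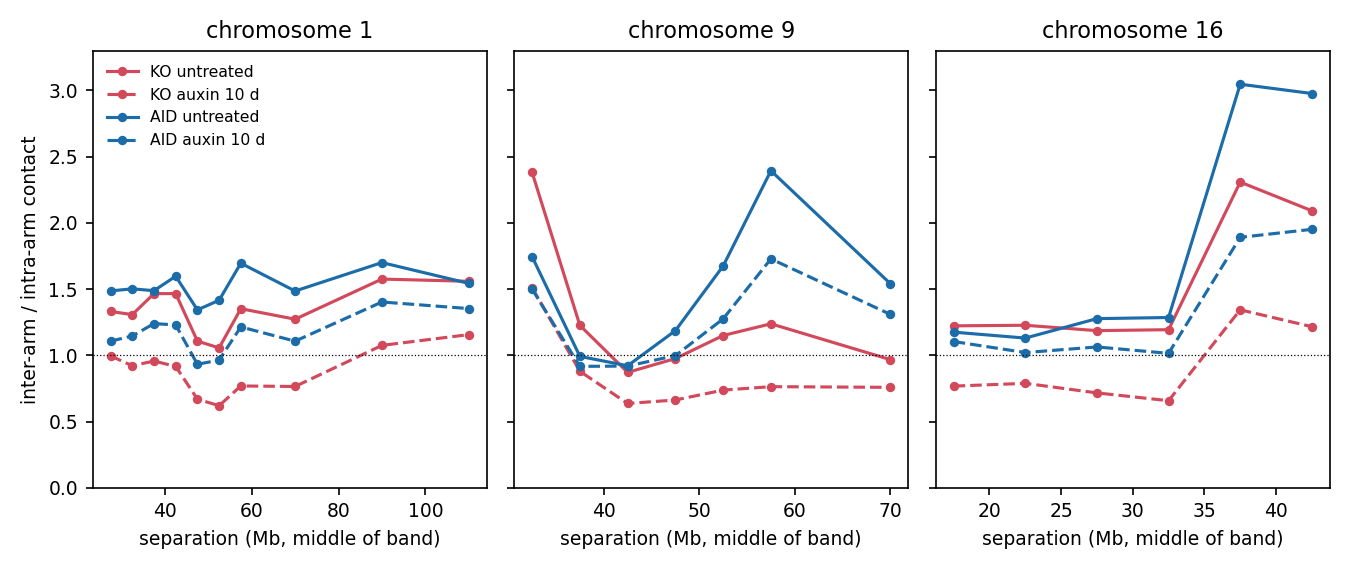
Inter-arm over intra-arm contact (vertical axis) by separation in Mb (horizontal axis, middle of each band) on chromosomes 1, 9 and 16, without auxin (solid) and after 10 d of auxin (dashed) in the knockout (red) and in DNMT1-AID cells (blue). The band of 10 to 15 Mb on chromosome 16 is left out, as 1 library had only 98 bin pairs there. The dashed red line lies under the solid red line in every band drawn, and the red and blue solid lines of chromosome 9 cross.

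The size of the change was also set against the level of the ratio. Over the other 15 chromosomes, the change in the knockout at 10 d went down with the ratio of the same chromosome in untreated DNMT1-AID cells, a library outside that comparison (Pearson r -0.76, Spearman rho -0.71, n = 15 chromosomes of the same libraries, with no test). A least-squares line through those 15 gave -0.47, -0.35 and -0.51 for the levels of chromosomes 1, 9 and 16, and the measured changes lay under it by -0.19, -0.18 and -0.21. The SD of the 15 about the line was 0.092, and 0 of 15 lay further below it than any of the 3. The levels of chromosomes 1 and 16 (1.47 and 1.66) lay above those of all 15, whose highest was 1.19. Their line values are thus extrapolations, and the SD does not hold the added error of these.

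Chromosomes 3, 5, 12 and 17 were the other chromosomes whose untreated DNMT1-AID ratio exceeded 1, and they were picked out after their values were seen. In the knockout at 10 d their log2 changes were -0.37, -0.36, -0.28 and -0.30. They lay within -0.042 to 0.094 of the line, whereas chromosome 9, with a ratio of 1.10 in that library, like theirs, was at -0.53. For 10 d of auxin in DNMT1-AID cells, placed on the untreated knockout ratio, chromosomes 1, 9 and 16 lay at -0.097, 0.079 and -0.0042 from the line of the other 15. There the changes of the 3 lay within the SD of the others about the line (0.17, or 0.073 without chromosome 19, when the value of chromosome 1 was -0.084 and lay outside it). Chromosomes 1 and 16, with levels of 1.32 and 1.49, again lay beyond the 15, whose highest level was 1.14.

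**Figure D5:**
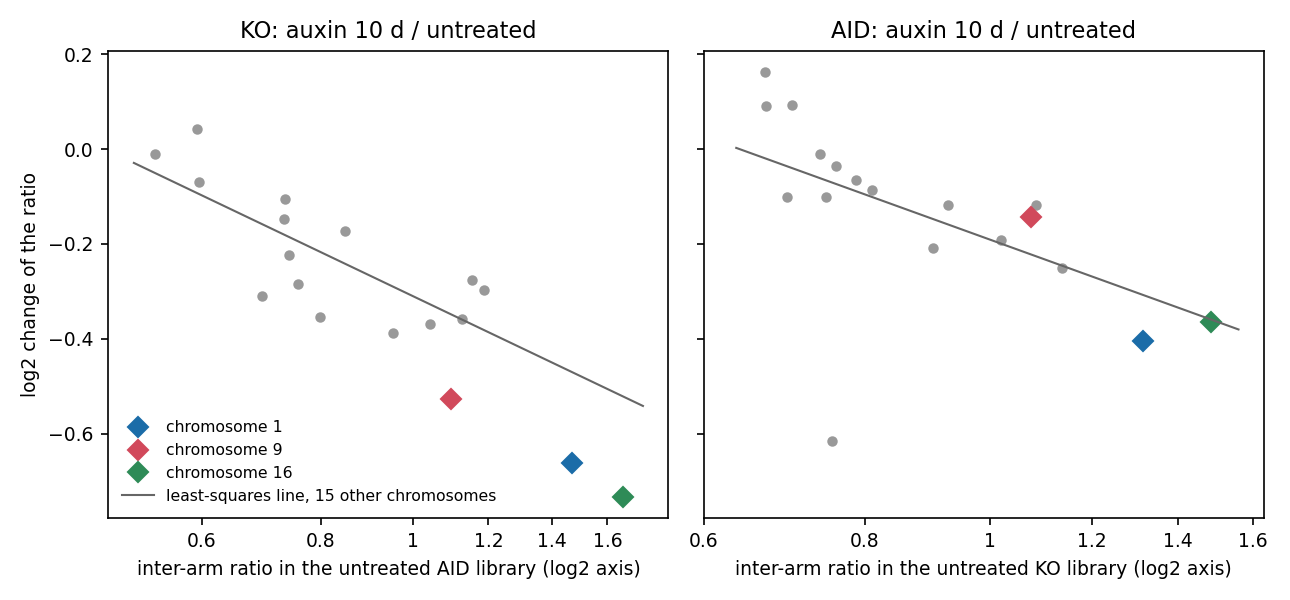
Log2 change of the inter-arm ratio after 10 d of auxin (vertical axis) against the inter-arm ratio of the same chromosome in the untreated library of the other genotype (horizontal axis, log2 scale), for the knockout (KO, left) and DNMT1-AID cells (AID, right). Diamonds are chromosomes 1, 9 and 16, and grey points the other 15 chromosomes. The line is the least-squares fit to the grey points, extended past them to reach chromosomes 1 and 16. On the left the diamonds lie -0.21 to -0.18 from the line, and on the right -0.097 to 0.079.

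Contact between chromosomes 1, 9 and 16, a readout that the inter-arm tables do not hold, differed by less than the rule of size in all 11 comparisons. Relative to the median of all 253 pairs of chromosomes, the pair of 9 and 16 had a log2 contact of 0.34 in the knockout at 10 d and 0.39 without auxin, and 0.35 and 0.42 in DNMT1-AID cells. The pair of 1 and 16 had 0.18 and 0.18 in the knockout, and 0.14 and 0.17 in DNMT1-AID cells. The pair of 1 and 9 had 0.014 and 0.063 in the knockout, and 0.070 and 0.11 in DNMT1-AID cells. In untreated DNMT1-AID cells the 3 pairs ranked 104 (1 and 9), 88 (1 and 16) and 53 (9 and 16) of 253 from the highest.

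Over the 11 comparisons the changes of these 3 pairs lay between -0.075 and 0.039. At 10 d against 4 d in DNMT1-AID cells, the pair of 9 and 16 (-0.074) and the pair of 1 and 16 (-0.061) ranked 10 and 20 of 253 from the lowest, with an SD over pairs of 0.038. None of the 3 reached 0.1 in size at 10 d against untreated, which 7.51% of all pairs did in the knockout and 16.2% in DNMT1-AID cells. Inter-arm contact was also set against the mean contact of the same chromosome with all others. On chromosome 16 it was 9.54 times that contact at 10 d and 13.3 times untreated in the knockout, and 15.1 and 22.4 times in DNMT1-AID cells. On chromosome 1 it was 7.88 and 11.2 times in the knockout and 10.4 and 16.4 times in DNMT1-AID cells. On chromosome 9 it was 8.45 and 11.2 times in the knockout and 10.9 and 14.2 times in DNMT1-AID cells. The median of the others was 10.1 and 11.9 times in the knockout and 12.9 and 17.7 times in DNMT1-AID cells. On this scale inter-arm contact was lower at 10 d for the 3 chromosomes and for the median of the others alike. Without auxin, chromosomes 1 and 9 lay below the median of the others in both genotypes, and chromosome 16 lay above it. This scale was not matched for separation, so these levels are not like for like between chromosomes. Inter-arm pairs were first measured at 27.25 Mb or more on chromosomes 1 and 9, and at 8.7 Mb or less on the other 15.

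Raw contacts were also counted at inter-arm separations that hold no valid bin pair, so that at least 1 end lay in a masked bin within or beside the satellite blocks. They were few. Per 1000000 contacts of the library totals given above, chromosome 1 had 2.97, 3.31 and 3.40 in untreated, 4 d and 10 d knockout cells, and 3.23, 3.40 and 4.49 in DNMT1-AID cells at these times, with 3.84 after washout. The value at 10 d in DNMT1-AID cells (interval 4.16 to 4.83) lay above the 95% Poisson intervals of the other 2 DNMT1-AID times. Chromosome 9 had 7.19, 7.02 and 7.52 in the knockout and 7.18, 7.10, 7.22 and 6.11 in DNMT1-AID cells, and these intervals overlap. Chromosome 16 had only 8 to 75 such counts per library, between 0.293 and 0.510 per 1000000 contacts.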

How the data were processed

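Per the labels' protocols, an Arima kit was used for Hi-C, with sequencing from both ends. The submitters' processing notes name BWA and the build hg38. For the BWA version, the read-pair filter and the programs for balancing and tabulation, the sources used here give nothing. Per the file headers, each 50 kb separation has a raw contact count, a number of valid bin pairs and a balanced signal summed by the authors. The deposited counts are not normalised and also hold contacts of masked bins, whose balanced signal is 0.

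The matched ratio is the summed inter-arm balanced signal over that predicted by the intra-arm mean (both arms) at each separation of 20 to 50 Mb that had 10 or more bin pairs both between and within arms. Chromosomes needed 10000 bin pairs of each kind. Log2 differences were taken for 11 comparisons, with no test except the sign permutation over times. Chromosomes 1 to 22 and X entered contact between chromosomes. Genes and clusters were placed by hg38 coordinates, with genes from the RefSeq table of GRCh38. The genes named are the nearest coding genes that lie wholly outside each run. Python 3.11.15, numpy 2.4.6, pandas 2.3.3, scipy 1.17.1 and matplotlib 3.10.9 were used, and the ratio was tested on simulated data. Members, lists and the rule of size were chosen with earlier results of these data known. The labels do not say whether libraries came from separate cultures. Alternatives were raw counts, other separation ranges, unmatched pooling, the first 5 Mb left out, the long arm alone, and a higher pair minimum. For contact between chromosomes they were raw counts over trans totals and pairs with other chromosomes as reference.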

Additional observations from a re-analysis of the deposited data

Results flagged for a closer look

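On chromosome 9 the change of the inter-arm ratio after 4 d of auxin ran in opposite directions in the knockout (-0.22) and in DNMT1-AID cells (0.26), a difference of -0.49 on the log2 scale. Each effect rests on 1 library per group, so this difference was not tested. It was the lowest of the 18 chromosomes, and the intra-arm part on chromosome 9 was 0.055 in the knockout and -0.44 in DNMT1-AID cells. The medians of the other chromosomes for that part were 0.10 and -0.25.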

How the results depend on the processing

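Each group held 1 library and no replicate numbers were shared, so depth limits only the counting error, and no replicate could be left out. Apart from the pairing by time in the sign test, no analysis paired by replicate number was possible because the labels carry no such numbers. The mean log2 change of chromosomes 1, 9 and 16 kept its sign under all alternatives in 10 of 11 comparisons. In the knockout at 10 d against untreated it was -0.64, and -0.61 at 10 to 40 Mb, -0.60 over all separations, -0.54 unmatched and -0.66 at 30 to 50 Mb. At 4 d it was -0.25, and -0.19 at 10 to 40 Mb and -0.21 unmatched. In DNMT1-AID cells at 10 d it was -0.30, and -0.25 at 10 to 40 Mb, -0.23 unmatched and -0.35 at 30 to 50 Mb, and at 4 d it was 0.087, and 0.11 at 10 to 40 Mb and 0.052 at 30 to 50 Mb. The untreated genotype difference of -0.12 turned to 0.057 at 10 to 40 Mb, and was -0.21 over all separations, -0.00012 unmatched and -0.16 at 30 to 50 Mb, with chromosome 9 at 0.34 in the first of these. The mean genotype difference over the 3 times was -0.34, with alternatives from -0.43 to -0.16. Of 264 values for single chromosomes under alternatives, 1 that passed the rule of size changed sign, that of chromosome 9 at 4 d between genotypes (0.034 at 10 to 40 Mb). The 264 include values under the rule of size in the main setting, which were not counted when they turned sign. Among these, chromosome 9 between untreated genotypes ran from -0.39 to 0.34. In DNMT1-AID cells at 4 d chromosome 16 ran from -0.059 to 0.096 and chromosome 1 from -0.065 to 0.022. The mean change of contact among the 3 chromosomes turned sign with the scaling in some comparisons but stayed small. With raw counts over trans totals it was 0.010 in the knockout at 10 d (-0.034 balanced) and 0.0073 at 4 d (-0.0025), 0.017 in DNMT1-AID cells at 10 d (-0.051) and 0.023 at 4 d (0.0019), and 0.014 between the untreated genotypes (-0.025). Against pairs with other chromosomes with 2 arms it was -0.022 in the knockout at 4 d, -0.0068 and 0.012 in DNMT1-AID cells at 4 d and after washout, and -0.048 between the untreated genotypes.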
